A study of Mus musculus with 28 samples.

Results

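Aminoacyl-tRNA synthetases are the enzymes that join each amino acid to its own transfer RNA (tRNA). The 36 genes described here were taken by name from the 43430 gene IDs of 3 mouse read-count tables. They are 20 genes for cytosolic enzymes, such as Aars for alanine and Vars for valine, and 16 nuclear genes for mitochondrial enzymes, whose names end in 2. Gars and Kars, counted here as cytosolic, encode the glycine and lysine enzymes of both compartments. Farsa and Farsb encode the paired subunits of the cytosolic phenylalanine enzyme. All 36 genes had enough counts to be tested in each comparison.

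Cytosolic synthetases charge the tRNAs used by cytosolic ribosomes, and several of them sit together in a multisynthetase complex. Mitochondrial synthetases are imported and charge the tRNAs with which mitochondria translate the respiratory-chain subunits of their own DNA, cytochrome b of complex III among them. ATF4 is a transcription factor made when amino acids run short or mitochondria are disturbed. Many cytosolic synthetase genes are among its commonly listed targets, and so is Asns, the gene for asparagine synthetase. Regulatory T cells (Treg cells) are the Foxp3+ CD4+ T cells that restrain other immune cells.

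RNA was measured in 28 libraries of CD4+ Treg cells sorted as YFP-Foxp3+ CD25+ from C57BL/6NJ mice, and the study asked what loss of respiratory-chain function does to these cells. RISP, the Rieske iron-sulfur subunit of complex III, is encoded by Uqcrfs1. RISP_KO and RISP_WT cells came from 3-week-old mice of RISP knockout or wild-type genotype (4 libraries each). RISP_Chimera_KO and RISP_Chimera_WT cells, of the same genotypes, came from chimeras aged 8 to 12 weeks (4 libraries each). In vitro, RISP wild-type cells of 3-week-old mice were given 1 µM piericidin (a complex I inhibitor), 500 µM 3-NPA (3-nitropropionic acid, a complex II inhibitor) or 1 µM antimycin A (a complex III inhibitor), or were left untreated (3 libraries each). Libraries of RISP_KO and RISP_WT were made with the Takara kit and all others with the NEB kit. The Cre line, the make-up of the chimeras, the exposure time and whether replicates are separate mice are not given in the sources used here. The p-values therefore rest on the differences among these libraries and may reflect technical spread alone.

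Total counts were 28.4 to 36 M per RISP_KO library and 36.8 to 50.8 M per RISP_WT library. Chimera libraries held 20.4 to 31 M counts and in vitro libraries 2.71 to 3.45 M, so low in vitro values are the least precise. Uqcrfs1 gave 5.14 to 7.45 CPM (counts scaled to the library total) in RISP_KO, against 154 to 189 CPM in RISP_WT. In chimeras it gave 4.83 to 11.3 CPM (RISP_Chimera_KO) and 73.5 to 85.9 CPM (RISP_Chimera_WT). Treg markers such as Foxp3 and Il2ra were present in all libraries. Summed over 8 macrophage markers, CPM were 5.93 to 10.7 in RISP_KO and 14.8 to 42 in RISP_WT, with at most 2 of the 8 at 0. The summed CPM of 6 B cell markers were 23.6 to 34 in RISP_KO and 43.4 to 58.4 in RISP_WT, with at most 2 of the 6 at 0. The 4 natural killer cell markers summed to 24.6 to 54.7 CPM in RISP_KO and 4.29 to 6.64 CPM in RISP_WT, with at most 2 at 0. Of this, Gzma gave 21.9 to 49.9 CPM in RISP_KO and 0.527 to 2.07 CPM in RISP_WT, while Klrb1c, Klrd1 and Ncr1 each had a lower mean in RISP_KO. The part of these markers in the synthetase results was not tested.

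Promoters of the cytosolic genes are shown because ATF4 target genes commonly hold a short element of the form TGATGNAA, where N is any base. A window of 250 bases before to 50 after the start site was given by RefSeq (GRCm38.p6) for 27 of the 36 genes, and both strands were searched. The element was found in 5 of 13 cytosolic genes (38.5%) and 0 of 14 mitochondrial genes, against 3.97% of 32851 windows of all genes. The 5 genes are Aars, Gars, Iars, Tars and Yars, and all of them belong to the 12 cytosolic genes commonly listed as ATF4 targets. That list is Aars, Cars, Eprs, Gars, Iars, Lars, Mars, Nars, Sars, Tars, Wars and Yars, of which 8 had a window. Of the 8 other cytosolic genes, 5 had a window and none held the element. A match describes these letters and not a bound site. The following lines show it in 4 of these genes, and capitals mark the element, read 5′ to 3′ on the strand that carries it.
Yars, chr4:129189895-129189924, + strand: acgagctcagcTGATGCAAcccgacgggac
Gars, chr6:55037960-55037989, - strand: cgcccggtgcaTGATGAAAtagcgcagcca
Iars, chr13:49682126-49682155, - strand: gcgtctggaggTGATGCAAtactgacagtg
Tars, chr15:11399655-11399684, + strand: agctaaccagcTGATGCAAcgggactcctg

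The E-box CACGTG, a motif bound by MYC among other factors, was found in 4 of 13 cytosolic windows (30.8%) and 1 of 14 mitochondrial windows (7.14%), against 7.15% of all windows. No printed line holds it.

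The median read density was higher for cytosolic than for mitochondrial genes in every group, though the ranges of the compartments overlapped. Per kilobase of exon, the median cytosolic gene had 37.4 CPM in RISP_KO and 30.3 CPM in RISP_WT, and the median mitochondrial gene had 6.33 CPM in RISP_KO and 5.81 CPM in RISP_WT. Vars, Gars and Wars stood highest in RISP_KO per kilobase, at 93.5 ± 11.3, 72.5 ± 9.48 and 66 ± 7.8 CPM (SD, n = 4). In RISP_WT the order opened with Dars, for aspartate, at 55.3 ± 4.68, then Nars at 54.4 ± 1.77, Vars at 54.1 ± 2.79 and Gars at 52.5 ± 1.06 CPM, neighbours whose values lay within the spread of each other. Lars2, for mitochondrial leucine, stood highest among mitochondrial genes, with 45.5 ± 6.09 CPM per kilobase in RISP_KO and 45.3 ± 4.47 in RISP_WT. This was near the level of many cytosolic genes. Other mitochondrial genes overlapped the lower cytosolic ones. In RISP_KO Tars2 had 16.5 ± 2.13 CPM per kilobase, against 10.6 ± 1.61 for cytosolic Cars. In RISP_WT Rars2 had 13.9 ± 1.79, against 5.51 ± 0.473 for Cars. At the low end of RISP_KO stood Mars2, for mitochondrial methionine, with 1.19 ± 0.148 CPM per kilobase. Median densities of cytosolic genes were lower in chimeras, with 20.4 CPM per kilobase in RISP_Chimera_KO and 21 in RISP_Chimera_WT, and Lars2 stood at 145 in RISP_Chimera_KO and 169 in RISP_Chimera_WT. Gm42418, an annotated gene known for collecting ribosomal RNA reads, gave 1822 to 3769 CPM in RISP_Chimera_WT, against 253 to 356 CPM in RISP_WT. The part of such reads in the Lars2 level was not tested. Kit and age differ between these settings, and their parts in such levels cannot be told apart.

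In Treg cells of 3-week-old mice, RISP loss went with higher RNA of many cytosolic synthetase genes, while of the mitochondrial ones Tars2 alone passed the test. Of 20 cytosolic genes, 11 rose and none fell (edgeR quasi-likelihood test, Benjamini-Hochberg adjusted p under 0.05). Of all genes tested, 9.86% were called, 4.78% as higher and 5.08% as lower. All 20 had a positive log2 fold change, from 0.06 to 0.95 with a median of 0.37, against a median of 0.00 over all genes. In 12 of the 20, every RISP_KO library lay above every RISP_WT library, against 6.94% of all genes. Of 16 mitochondrial genes, 1 rose and none fell, the log2 fold changes ran from -0.40 to 0.59 with a median of 0.07, and 11 were positive.

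Aars, for alanine, gave 252, 225, 227 and 236 CPM in RISP_KO, against 146, 156, 144 and 148 CPM in RISP_WT. Its lowest RISP_KO library was well above its highest RISP_WT library, with a log2 fold change of 0.67 ± 0.07 (SE, adjusted p = 0.000316). Cars, for cysteine, gave 85.5, 65.4, 62.4 and 66 CPM in RISP_KO, against 36.3, 40.4, 35.5 and 32.9 CPM in RISP_WT. The groups did not overlap and the first RISP_KO library stood highest, with a log2 fold change of 0.95 ± 0.11 (adjusted p = 0.000528), the largest of the 36 genes here. On the opposite strand, Cars shares 211 exonic bases with Gm15580, and Aars shares 77 with Gm24103. Vars, for valine, gave 618, 477, 504 and 500 CPM in RISP_KO, against 318, 301, 283 and 312 CPM in RISP_WT. It too was higher in every RISP_KO library, with a log2 fold change of 0.80 ± 0.09 (adjusted p = 0.000428), although it is not on the list of ATF4 targets.

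Yars, for tyrosine, gave 109, 91.8, 85.8 and 96.8 CPM in RISP_KO, against 63, 68.3, 62 and 62.8 CPM in RISP_WT, a log2 fold change of 0.59 ± 0.09 (adjusted p = 0.00199). Sars, for serine, gave 317, 274, 279 and 281 CPM in RISP_KO, against 226, 221, 203 and 208 CPM in RISP_WT, a log2 fold change of 0.44 ± 0.07 (adjusted p = 0.00394). Mars, for methionine, gave 161, 126, 152 and 170 CPM in RISP_KO, against 104, 107, 90.2 and 105 CPM in RISP_WT, a log2 fold change of 0.59 ± 0.10 (adjusted p = 0.00497). None of these 3 genes had overlapping groups. Mars shares 68 exonic bases with Ddit3, a stress gene on the opposite strand that also rose, and without the strand setting of the counting their reads cannot be told apart there.

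The other cytosolic genes that rose were Gars (log2 fold change 0.47 ± 0.09, adjusted p = 0.00763), Wars for tryptophan (0.49 ± 0.10, 0.00979), Eprs for glutamate and proline (0.37 ± 0.08, 0.0184), Iars for isoleucine (0.40 ± 0.10, 0.0264) and Kars (0.27 ± 0.07, 0.0427). The last 3 were the least firm. Eprs missed the threshold without RISP_WT replicate 3, Iars without RISP_KO replicate 3 or RISP_WT replicate 1, 2 or 3, and Kars in 7 of the 8 fits that left out a library. The 9 cytosolic genes that were not called had log2 fold changes from 0.06 for Farsa to 0.36 for Lars, for leucine (adjusted p = 0.0749).

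Tars2, for mitochondrial threonine, gave 130, 123, 103 and 100 CPM in RISP_KO, against 70, 85.3, 72.2 and 77 CPM in RISP_WT. Every RISP_KO library was above every RISP_WT library, and the log2 fold change was 0.59 ± 0.10 (adjusted p = 0.00388), kept in all 12 other fits. Its cytosolic counterpart Tars had a log2 fold change of 0.18 ± 0.08 (adjusted p = 0.169). Cars2, the mitochondrial cysteine enzyme, had the lowest mitochondrial value, -0.40 ± 0.15 (adjusted p = 0.118), where cytosolic Cars had the highest cytosolic one. Cars2 shares 422 exonic bases with Naxd on the opposite strand.

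Summed over the 20 cytosolic genes, CPM were 3775 ± 223 in RISP_KO and 2892 ± 126 in RISP_WT (SD, n = 4 each). Summed over the mitochondrial genes without Lars2, CPM were 539 ± 41.9 in RISP_KO and 482 ± 35.4 in RISP_WT. The cytosolic sum was 6.80 to 7.48 times this mitochondrial sum in RISP_KO libraries and 5.66 to 6.42 times in RISP_WT libraries, ranges that did not overlap. In such bulk samples, a change in the mix of cells and a change of RNA per cell cannot be told apart.

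**Figure D1:**
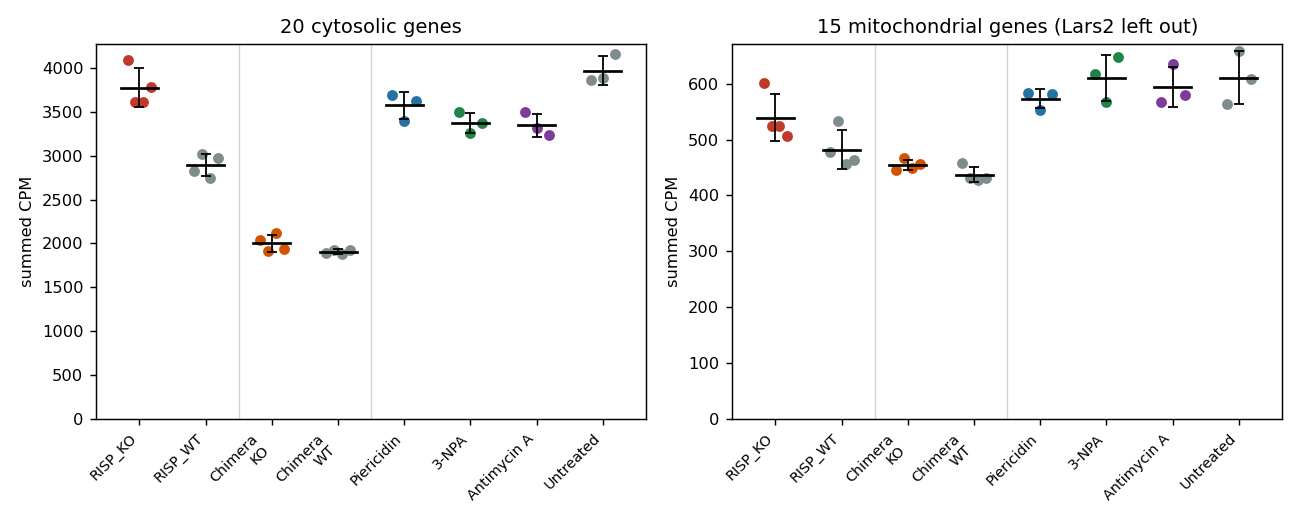
Summed CPM of the 20 cytosolic synthetase genes (left) and of 15 mitochondrial ones without Lars2 (right), 1 point per library, with mean (bar) and SD. The RISP_KO libraries stand above RISP_WT in the cytosolic panel (3775 ± 223 against 2892 ± 126), and the means of the treated in vitro groups (3574, 3375 and 3347) are below that of untreated cells (3969).

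By list, 9 of the 12 commonly listed ATF4 targets rose in RISP_KO against 2 of the 8 other cytosolic genes, Vars and Kars, with medians of 0.45 and 0.14. Of all genes tested, 4.78% rose and 9.86% were called in either direction. By structural class, 7 of 10 class I enzymes and 4 of 10 class II enzymes rose (medians 0.45 and 0.21). Of the 8 members of the multisynthetase complex 4 rose (median 0.32). None of its 3 scaffold genes Aimp1, Aimp2 and Eef1e1 was called, although all 3 had an unadjusted p under 0.05, against 25.5% of all genes (median 0.26). None of 8 mitochondrial translation factor genes was called, which is near the share of 9.86% over all genes. None had an unadjusted p under 0.05, against 25.5% of all genes. The 4 genes that amidate or formylate charged mitochondrial tRNAs likewise gave no call at either level. Of 6 cytosolic elongation factor genes, Eif5a, whose product keeps ribosomes moving through hard stretches, rose with a log2 fold change of 0.42 ± 0.07 (adjusted p = 0.00353).

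Atf4 itself gave 146, 103, 81.8 and 84.6 CPM in RISP_KO, against 98.2, 67.8, 62.9 and 67.5 CPM in RISP_WT. These groups overlapped, and the log2 fold change of 0.49 ± 0.19 was not called (adjusted p = 0.133). Asns gave 93.6, 56.4, 46.5 and 52.3 CPM in RISP_KO, against 7.53, 12, 6.49 and 14.1 CPM in RISP_WT. It rose in every RISP_KO library, by 2.64 ± 0.28 on the log2 scale (adjusted p = 0.000383). Trib3, a pseudokinase gene of the same stress response, rose by 1.74 ± 0.22 (adjusted p = 0.000773). Among the 11 stress genes tested, 6 rose and none fell, against 4.78% and 5.08% of all genes. Negative values, not called, were seen in 2 of the 11, the lowest at -0.26. Of 6 growth genes 4 rose, against 4.78% of all genes. Among them were Nop56 for ribosome assembly (0.63 ± 0.09, adjusted p = 0.00177), Cad for pyrimidine synthesis (0.70 ± 0.10, 0.00199) and Ncl for nucleolin (0.48 ± 0.11, 0.0191). Of 6 proliferation genes 1 rose, Top2a for a DNA topoisomerase (0.50 ± 0.10, adjusted p = 0.00959).

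**Figure D2:**
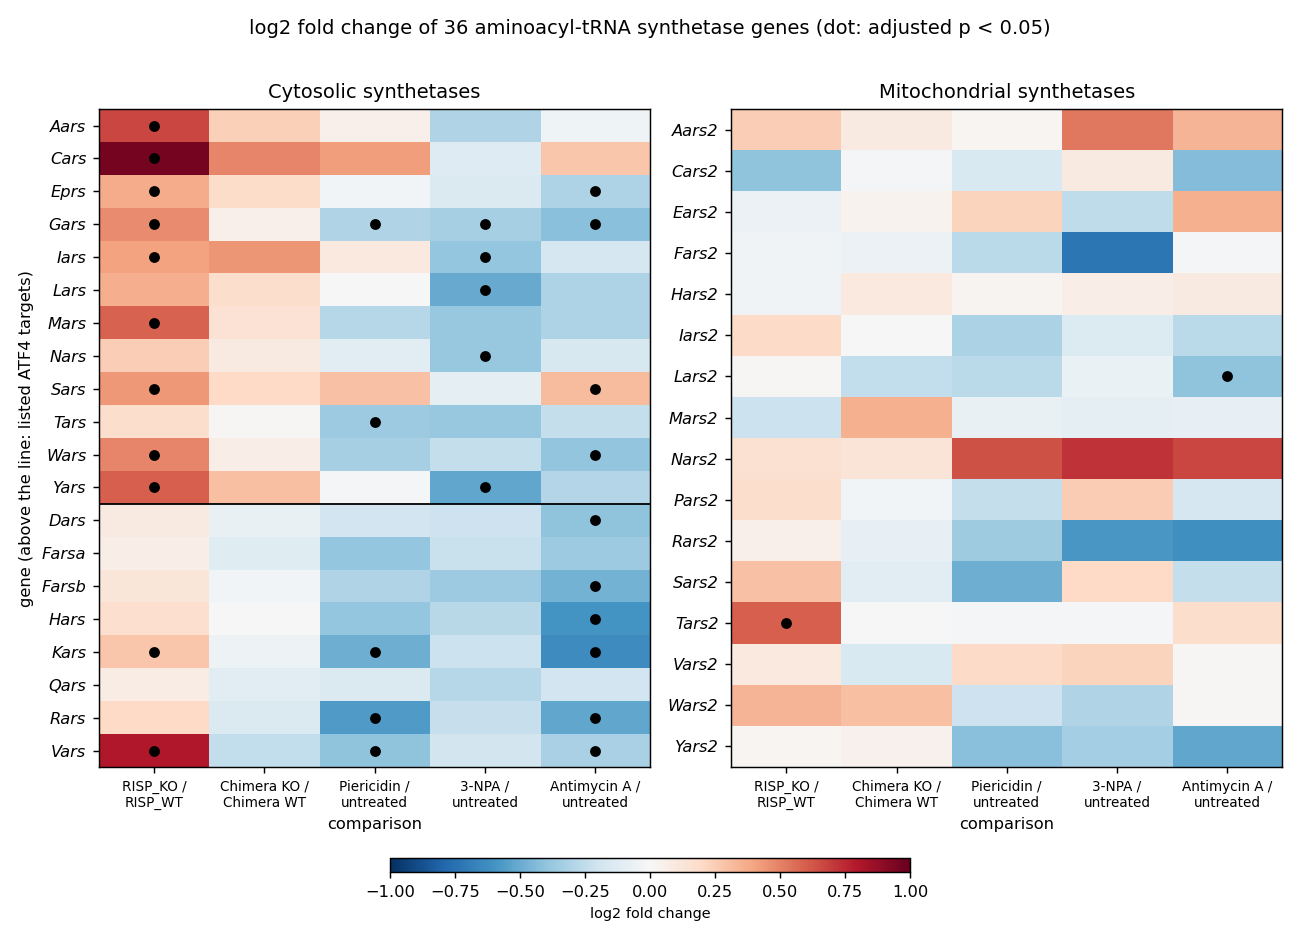
Heat map of log2 fold changes of the 36 genes (rows) in the 5 comparisons with a control (columns), red for higher and blue for lower, with a dot where the edgeR adjusted p was under 0.05. The 11 cytosolic dots of the RISP_KO column are all red, the chimera column has none, and the inhibitor columns are mostly blue among cytosolic genes.

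In chimeras, RISP loss gave no called synthetase gene in either compartment. The edgeR test called 0 of 20 cytosolic and 0 of 16 mitochondrial genes, while 0.708% of all genes were called. At an unadjusted p under 0.05 there were 7 of 20 cytosolic genes and 1 of 16 mitochondrial genes, against 12.9% of all genes. DESeq2 called 2 cytosolic genes, Cars and Iars, and no mitochondrial one. Medians of the log2 fold changes were 0.06 for cytosolic and 0.01 for mitochondrial genes, against 0.00 over all genes. The 12 listed ATF4 targets all had positive values, from 0.0085 to 0.49 (median 0.18). The 8 other cytosolic genes all had negative ones, from -0.24 to -0.0025 (median -0.09). An unadjusted p under 0.05 was found for 6 of the 12 and 1 of the 8. The difference between these lists was not tested.

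Iars gave 102, 96.5, 119 and 78.6 CPM in RISP_Chimera_KO, against 63.2, 77.7, 73.4 and 73.6 CPM in RISP_Chimera_WT. The groups did not overlap, which also held for Yars and Wars2, while 3.9% of all genes lay wholly above and 3.53% wholly below. No synthetase lay wholly below. The log2 fold change of Iars was 0.44 ± 0.12 (adjusted p = 0.129), and it passed without RISP_Chimera_KO replicate 4 (adjusted p = 0.0332). Cars gave 39.2, 38.3, 41.1 and 31.8 CPM in RISP_Chimera_KO, against 25.6, 26.8, 32.8 and 20.4 CPM in RISP_Chimera_WT. The lowest knockout library lay below the highest wild-type one, and the log2 fold change was 0.49 ± 0.14 (adjusted p = 0.165).

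RISP_Chimera_KO replicates 2 and 4 had the most RNA of other cell types, with macrophage, B cell, plasma cell and dendritic cell markers summing to 117 and 140 CPM, against 46.1 to 92.1 CPM in the other chimera libraries. Without both, 1 cytosolic gene was called, Iars (adjusted p = 0.0132). The part of these markers in the other values was not tested.

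Of the mitochondrial genes the smallest p belonged to Mars2, which gave 48.4, 40.7, 48.4 and 49.2 CPM in RISP_Chimera_KO, against 35.5, 38.4, 29.3 and 40.7 CPM in RISP_Chimera_WT. The lowest knockout library met the highest wild-type one, and the log2 fold change was 0.36 ± 0.11 (adjusted p = 0.166). Wars2, for mitochondrial tryptophan, gave 14.9, 15.6, 12.1 and 12.5 CPM in RISP_Chimera_KO, against 11.9, 10.1, 11.3 and 11.1 CPM in RISP_Chimera_WT. Its groups did not overlap, though narrowly, with a log2 fold change of 0.30 ± 0.14 (adjusted p = 0.395). Tars2 gave 96.6, 105, 94.7 and 83.7 CPM in RISP_Chimera_KO, against 92.3, 88.7, 104 and 87.8 CPM in RISP_Chimera_WT, groups that overlapped fully.

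Asns was low in chimeras, with 1.43 to 1.78 CPM in RISP_Chimera_KO and 0.521 to 1.70 CPM in RISP_Chimera_WT, and was not called (log2 fold change 0.57 ± 0.44, adjusted p = 0.635). Atf4 had a log2 fold change of -0.19 ± 0.21 (adjusted p = 0.758). None of the 10 tested stress genes was called (0.708% of all genes), and 2 had an unadjusted p under 0.05 (12.9% of all genes). Of the 6 proliferation genes 1 was called, Cenpe for a kinetochore motor protein, which rose by 1.02 ± 0.20 (adjusted p = 0.0393). Of all genes, 0.167% were called as higher. All 6 had positive values, with a median of 1.03, against 0.43 in RISP_KO. All 6 also had an unadjusted p under 0.05, against 12.9% of all genes.

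The difference between the knockout effects, chimera minus 3-week, was tested in 1 fit of 16 libraries, in which 3.27% of all genes were called, 1.23% with a higher and 2.04% with a lower effect in chimeras. Among the synthetases 3 of 36 were called, all with a smaller effect in chimeras. Vars gave 165, 195, 191 and 210 CPM in RISP_Chimera_KO, against 200, 212, 218 and 260 CPM in RISP_Chimera_WT, a log2 fold change of -0.24 ± 0.09 (adjusted p = 0.266). The knockout libraries tended to the lower side there, opposite to the 3-week-old mice, and the difference of effects was -1.06 ± 0.13 (adjusted p = 0.000193), kept in all 20 other fits.

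For Tars2 the difference of effects was -0.61 ± 0.14 (adjusted p = 0.0244), lost without RISP_WT replicate 1 or 3, RISP_Chimera_KO replicate 4 or RISP_Chimera_WT replicate 3. For Gars it was -0.44 ± 0.12 (adjusted p = 0.045) and passed in 4 of 20 other fits. Gars gave 109, 104, 97.8 and 97 CPM in RISP_Chimera_KO, against 100, 97.3, 96 and 95.8 CPM in RISP_Chimera_WT. Its values hardly separated in chimeras, whereas in 3-week-old mice it gave 264, 227, 192 and 221 CPM in RISP_KO, against 163, 165, 160 and 167 CPM in RISP_WT. The difference was negative for 19 of 20 cytosolic genes (median -0.23) and 11 of 16 mitochondrial genes (median -0.10). Iars was the one cytosolic gene with a positive difference, at 0.02 ± 0.17 (adjusted p = 0.972).

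Some genes around the synthetases were called as well. A lower effect in chimeras was called for 1 of 11 stress genes, 2 of 6 growth genes and 1 of 6 cytosolic elongation factor genes. Of all genes, 2.04% were called as lower. None of the 6 proliferation genes and none of the 8 mitochondrial translation factor genes was called. The difference of effects was -2.11 ± 0.47 for Asns (adjusted p = 0.0169), -0.98 ± 0.20 for the growth regulator Myc (0.0114), -0.85 ± 0.21 for Nop56 (0.03) and -0.59 ± 0.10 for Eif5a (0.00354). For Uqcrfs1 it was 1.20 ± 0.27 (0.0191), with a log2 fold change of -4.83 ± 0.14 in 3-week-old mice and -3.60 ± 0.23 in chimeras. Age, library kit and the chimera setting changed together between these pairs of groups and cannot be told apart. In the same fit, 4 of 7 tested macrophage markers and 1 of 4 tested dendritic cell markers had a higher effect in chimeras. Of all genes, 1.23% were called as higher. No B cell, plasma cell or natural killer cell marker was called. The part of these markers in the synthetase differences was not tested.

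**Figure D3:**
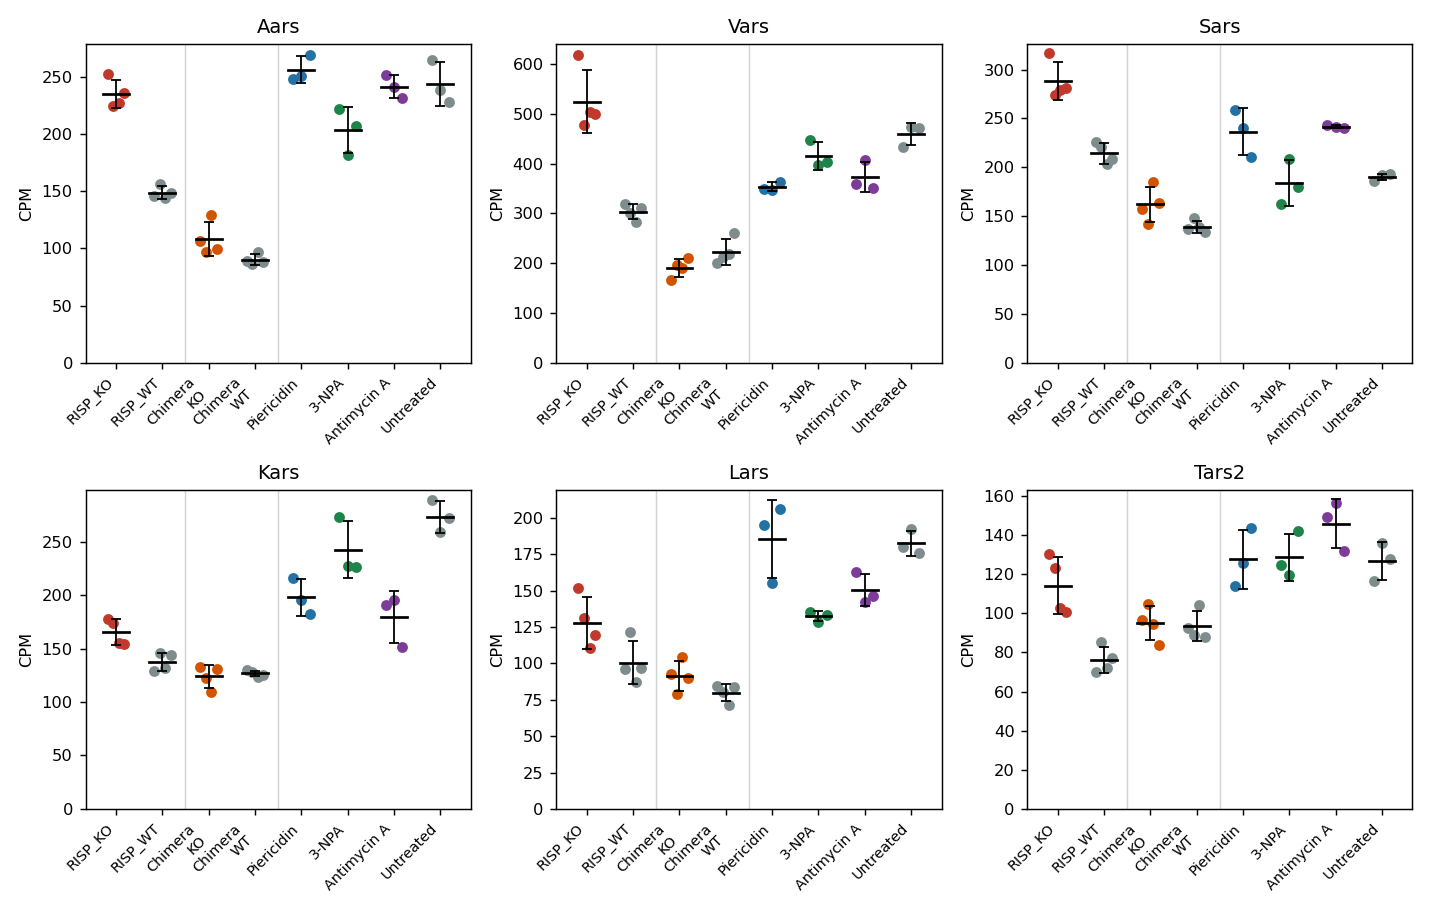
CPM of 6 synthetase genes in each library (points), with group mean (bar) and SD, for knockout and wild-type groups and for inhibitor-treated and untreated cells. Vars is at 477 to 618 CPM in RISP_KO and at 283 to 318 CPM in RISP_WT, while in chimeras the groups overlap and in vitro piericidin and antimycin A stand below untreated cells.

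In vitro, some cytosolic synthetase genes fell with each inhibitor. The doses differ between drugs, and the 3 comparisons share the same untreated libraries. Cytosolic sums were 3574 ± 153 CPM for piericidin, 3375 ± 117 CPM for 3-NPA and 3347 ± 134 CPM for antimycin A, against 3969 ± 166 in untreated cells (SD, n = 3 each). Mitochondrial sums without Lars2 were 573 ± 16.9 CPM for piericidin, 611 ± 41.2 CPM for 3-NPA and 595 ± 36 CPM for antimycin A, against 611 ± 47.6 in untreated cells. Over the 5 comparisons with a control, 18 of 20 cytosolic genes were called at least once, all but Farsa and Qars, and 2 of 16 mitochondrial ones, against 28.6% of the 10910 genes tested in all 5. The 7 genes Eprs, Gars, Iars, Kars, Vars, Wars and Yars rose in RISP_KO and fell with at least 1 drug, a pattern of 1.69% of those 10910 genes. Only Gars and Vars kept both calls in all other fits, 12 for RISP_KO and 11 for antimycin A. Gars, whose product serves both compartments, fell with all 3, as did 1.33% of those genes. Its call was kept in 7 of 11 other fits with piericidin and 5 of 11 with 3-NPA.

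With piericidin, 5 of 20 cytosolic genes fell and none rose, against 13.6% of all genes called, 5.62% as higher and 7.93% as lower. The median log2 fold change was -0.24, against 0.01 over all genes. Every treated library lay below every untreated one in 9 genes and above in 2, Cars and Sars, against 14.3% of all genes below and 14.9% above. Vars gave 350, 347 and 364 CPM with piericidin, against 433, 473 and 472 CPM in untreated cells. The groups stood well apart, and the log2 fold change was -0.40 ± 0.09 (adjusted p = 0.00094). Kars, for lysine, gave 216, 196 and 182 CPM with piericidin, against 289, 259 and 272 CPM in untreated cells, a log2 fold change of -0.49 ± 0.11 (adjusted p = 0.00112). Rars, for arginine, gave 127, 99 and 92.1 CPM with piericidin, against 146, 156 and 162 CPM in untreated cells, a log2 fold change of -0.57 ± 0.13 (adjusted p = 0.00166). Neither Kars nor Rars had overlapping groups, and all 3 calls were kept in all 11 other fits.

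Gars gave 202, 246 and 223 CPM with piericidin, against 269, 261 and 283 CPM in untreated cells (log2 fold change -0.30 ± 0.09, adjusted p = 0.0263). Tars, for threonine, gave 137, 126 and 145 CPM with piericidin, against 158, 167 and 194 CPM in untreated cells (-0.36 ± 0.12, adjusted p = 0.0282). The groups did not overlap for either gene. Gars missed the threshold in 4 of the 6 fits that left out a library, and Tars without piericidin replicate 2 or untreated replicate 3. The count of called cytosolic genes was 9 without untreated replicate 2 and 3 without untreated replicate 3. Sars had a log2 fold change of 0.29 ± 0.10 (adjusted p = 0.051) and Cars of 0.42 ± 0.15 (0.0628), both just short of a call.

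No mitochondrial gene was called with piericidin (0 of 16 by edgeR and by DESeq2), and 2 had an unadjusted p under 0.05, against 25.7% of all genes. Without piericidin replicate 1, or without untreated replicate 2, 1 was called. The median log2 fold change was -0.18 and 11 of 16 values were negative. Iars2, for mitochondrial isoleucine, gave 104, 108 and 93.3 CPM with piericidin, against 112, 143 and 118 CPM in untreated cells. The groups did not overlap, by a narrow gap, and the log2 fold change was -0.32 ± 0.13 (adjusted p = 0.115). Iars2 shares 2034 exonic bases with Rab3gap2 on the opposite strand. Lars2 gave 1422, 1160 and 884 CPM with piericidin, against 1449, 1132 and 1528 CPM in untreated cells, groups that overlapped (-0.27 ± 0.11, adjusted p = 0.119).

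With 3-NPA, 5 of 20 cytosolic genes fell and none rose, against 3.23% of all genes called, 1.35% as higher and 1.87% as lower. All 20 values were negative, with a median of -0.28 against -0.01 over all genes. In 12 genes every treated library lay below every untreated one, against 9.36% of all genes. Lars, for leucine, gave 135, 129 and 133 CPM with 3-NPA, against 180, 192 and 176 CPM in untreated cells. The treated values were tight and well below, with a log2 fold change of -0.50 ± 0.11 (adjusted p = 0.00662), and Lars alone of the 5 kept its call in all 11 other fits.

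Nars, for asparagine, gave 201, 240 and 209 CPM with 3-NPA, against 261, 266 and 296 CPM in untreated cells (log2 fold change -0.38 ± 0.11, adjusted p = 0.0378). Gars gave 222, 227 and 213 CPM with 3-NPA, against 269, 261 and 283 CPM in untreated cells (-0.34 ± 0.09, adjusted p = 0.0379). Iars gave 157, 120 and 157 CPM with 3-NPA, against 159, 199 and 197 CPM in untreated cells (-0.39 ± 0.11, adjusted p = 0.0444). These groups did not overlap, for Iars only just. Yars gave 64.5, 83.5 and 52.2 CPM with 3-NPA, against 86.6, 105 and 87.4 CPM in untreated cells (-0.52 ± 0.15, adjusted p = 0.0499). The Yars groups were separate as well. These 4 genes sat close to the threshold: each of the 6 fits that left out a library, treated or untreated, gave only 1 to 3 cytosolic calls in place of 5.

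No mitochondrial gene was called with 3-NPA by edgeR or DESeq2, and 4 of 16 had an unadjusted p under 0.05, against 16.4% of all genes (median log2 fold change -0.04). Rars2, for mitochondrial arginine, gave 38, 20.3 and 33.4 CPM with 3-NPA, against 36, 46.4 and 52 CPM in untreated cells (-0.59 ± 0.22, adjusted p = 0.15). Fars2, for mitochondrial phenylalanine, gave 17.9, 12.9 and 11.9 CPM with 3-NPA, against 18, 31 and 19.6 CPM in untreated cells (-0.72 ± 0.28, adjusted p = 0.16). The libraries spread widely, the Rars2 groups overlapped and the Fars2 groups almost touched. On the positive side Nars2, for mitochondrial asparagine, had 0.72 ± 0.33 (adjusted p = 0.247).

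With antimycin A, 9 of 20 cytosolic genes fell and 1 rose, against 15% of all genes called, 6.5% as higher and 8.5% as lower. The median log2 fold change was -0.31, against 0.02 over all genes. In 11 genes every treated library lay below every untreated one and in 1, Sars, above, against 14.6% of all genes below and 16.9% above. Kars gave 191, 196 and 152 CPM with antimycin A, against 289, 259 and 272 CPM in untreated cells. The groups were far apart, with a log2 fold change of -0.63 ± 0.11 (adjusted p = 2.61e-05), the smallest p of any synthetase in vitro. Hars, for histidine, gave 85.4, 93.1 and 79.5 CPM with antimycin A, against 119, 111 and 156 CPM in untreated cells, a log2 fold change of -0.60 ± 0.14 (adjusted p = 0.00159). Hars shares 195 exonic bases with Hars2 on the opposite strand, and Hars2 had a log2 fold change of 0.09 ± 0.17 (adjusted p = 0.794).

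Gars gave 218, 207 and 195 CPM with antimycin A, against 269, 261 and 283 CPM in untreated cells (log2 fold change -0.42 ± 0.09, adjusted p = 0.00153). Rars gave 124, 96.7 and 109 CPM with antimycin A, against 146, 156 and 162 CPM in untreated cells (-0.52 ± 0.13, adjusted p = 0.003). Dars gave 143, 141 and 135 CPM with antimycin A, against 184, 178 and 180 CPM in untreated cells (-0.40 ± 0.10, adjusted p = 0.00518). All 3 genes had separate groups, Dars with the least spread. Vars gave 360, 408 and 352 CPM with antimycin A, against 433, 473 and 472 CPM in untreated cells (-0.32 ± 0.08, adjusted p = 0.00595). Kars, Hars, Gars, Rars, Dars and Vars kept their calls in all 11 other fits, and without untreated replicate 3 these 6 were the cytosolic genes called.

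Eprs (-0.31 ± 0.09, adjusted p = 0.0147), Farsb (-0.47 ± 0.15, 0.0249) and Wars (-0.40 ± 0.13, 0.0255) also fell, but each missed the threshold without untreated replicate 3 and without at least 1 antimycin A library. Sars gave 243, 241 and 240 CPM with antimycin A, against 186, 192 and 193 CPM in untreated cells. It was higher in all 3 treated libraries and rose by 0.32 ± 0.10 on the log2 scale (adjusted p = 0.0271), a call lost in each fit that left out a library.

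Of 16 mitochondrial genes 1 fell with antimycin A, Lars2, and the median log2 fold change was -0.05, with values from -0.62 to 0.67. An unadjusted p under 0.05 was found for 5 of 16, against 27% of all genes. Every treated library lay below every untreated one in 4 genes and above in 2, against 14.6% and 16.9% of all genes. Lars2 gave 1052, 1033 and 1076 CPM with antimycin A, against 1449, 1132 and 1528 CPM in untreated cells. The groups did not overlap, and the log2 fold change was -0.40 ± 0.11 (adjusted p = 0.011). The call was lost with DESeq2 and without untreated replicate 1 or 3. Gm42418, the gene known for collecting ribosomal RNA reads, gave 6563, 5627 and 8258 CPM with antimycin A, against 8526, 6584 and 8595 CPM in untreated cells. Within each of these groups the libraries had the same order for Gm42418 as for Lars2. The part of Gm42418 in the Lars2 value was not tested.

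**Figure D4:**
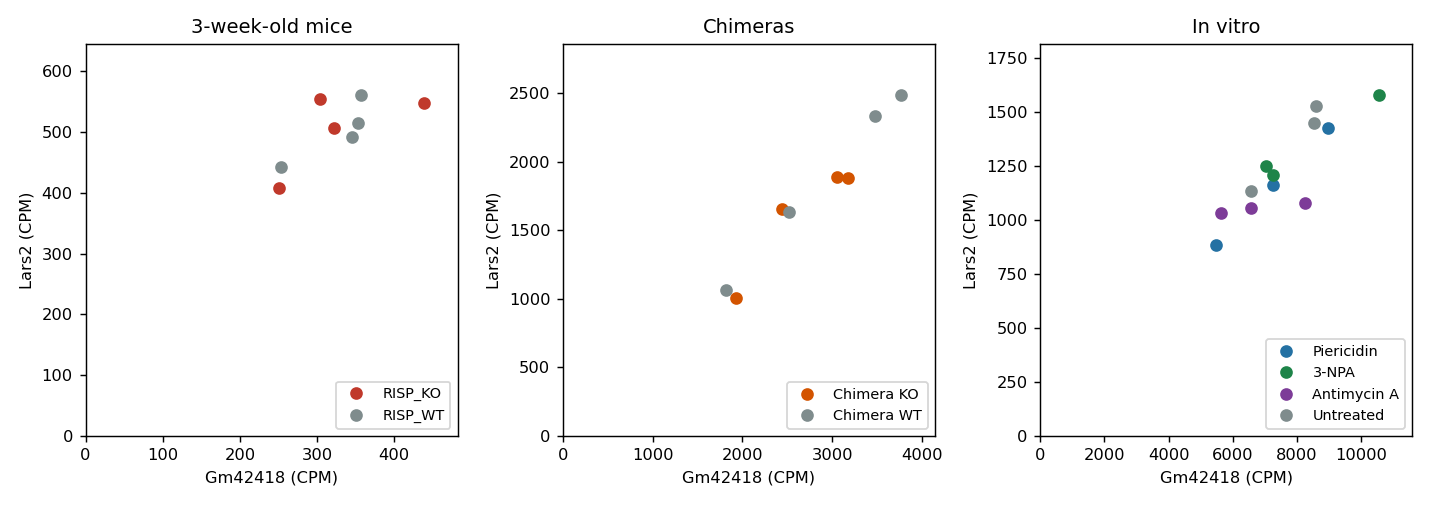
CPM of Lars2 (vertical axis) against CPM of Gm42418 (horizontal axis), 1 point per library, in 3-week-old mice, chimeras and in vitro. Both genes vary widely within groups of chimeras, where Lars2 spans 1002 to 1889 CPM in RISP_Chimera_KO and 1064 to 2485 CPM in RISP_Chimera_WT. In each chimera group, the library lowest in Lars2 is also lowest in Gm42418 (1923 CPM in RISP_Chimera_KO and 1822 CPM in RISP_Chimera_WT).

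The drugs were also set against each other, in 3 pairs at unlike doses. Piericidin against 3-NPA gave 5 called synthetases, all cytosolic and higher with piericidin, against 4.29% of all genes called, 1.87% as higher and 2.43% as lower. Wholly above lay 6 synthetases and wholly below 5, against 10% and 12% of all genes. The called genes were Lars (0.50 ± 0.11, adjusted p = 0.00508), Iars (0.49 ± 0.11, 0.00645), Sars (0.38 ± 0.10, 0.0248), Aars (0.35 ± 0.10, 0.0291) and Cars (0.54 ± 0.15, 0.0332). All 5 are listed ATF4 targets. Lars gave 195, 155 and 206 CPM with piericidin, against 135, 129 and 133 CPM with 3-NPA. Iars gave 212, 188 and 204 CPM with piericidin, against 157, 120 and 157 CPM with 3-NPA. Neither gene's groups overlapped. Aars gave 249, 251 and 270 CPM with piericidin, against 222, 182 and 207 CPM with 3-NPA, again separate, with antimycin A at 252, 241 and 232 CPM and untreated cells at 265, 239 and 228 CPM. Leaving out 1 library gave 2 to 4 calls, with Lars lost only without piericidin replicate 3 and Iars only without 3-NPA replicate 2. Sars kept its call in 2 of the 6 such fits, and Aars and Cars in 1 each.

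Antimycin A against 3-NPA gave 2 called synthetases, against 3.98% of all genes called, 1.6% as higher and 2.38% as lower. Wholly above lay 5 synthetases and wholly below 6, against 10.2% and 11.1% of all genes. Sars gave 243, 241 and 240 CPM with antimycin A, against 163, 209 and 180 CPM with 3-NPA, and was higher (0.41 ± 0.10, adjusted p = 0.0141). Kars gave 191, 196 and 152 CPM with antimycin A, against 273, 228 and 226 CPM with 3-NPA, and was lower (-0.42 ± 0.11, adjusted p = 0.0161). The groups of both genes were separate. No synthetase was called without 3-NPA replicate 1 or antimycin A replicate 3. Sars kept its call in 1 of the 6 fits that left out a library. Antimycin A against piericidin gave no called synthetase by edgeR or DESeq2, against 0.736% of all genes called, and 3 of 36 had an unadjusted p under 0.05, against 10.5% of all genes. Without overlap, 2 synthetases lay above and 4 below, against 8.48% and 7.4% of all genes. The smallest p was that of Eprs, with a log2 fold change of -0.28 ± 0.09 (adjusted p = 0.176).

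The 2 cytosolic lists were placed differently by drug. Of all genes, 7.93% fell with piericidin, 8.5% with antimycin A (6.5% rose) and 1.87% with 3-NPA. With piericidin 2 of 12 listed ATF4 targets and 3 of 8 other cytosolic genes fell (medians -0.02 and -0.39). With antimycin A 3 of the 12 fell and 1 rose, and 6 of the 8 others fell (medians -0.26 and -0.44). With 3-NPA 5 of the 12 and none of the 8 fell, although 6 of those 8 had an unadjusted p under 0.05, against 16.4% of all genes (medians -0.36 and -0.23). Piericidin against 3-NPA had positive values in 11 of the 12 listed targets (median 0.31) and in 3 of the 8 others (median -0.14). These are descriptions of lists, whose difference was not tested.

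**Figure D5:**
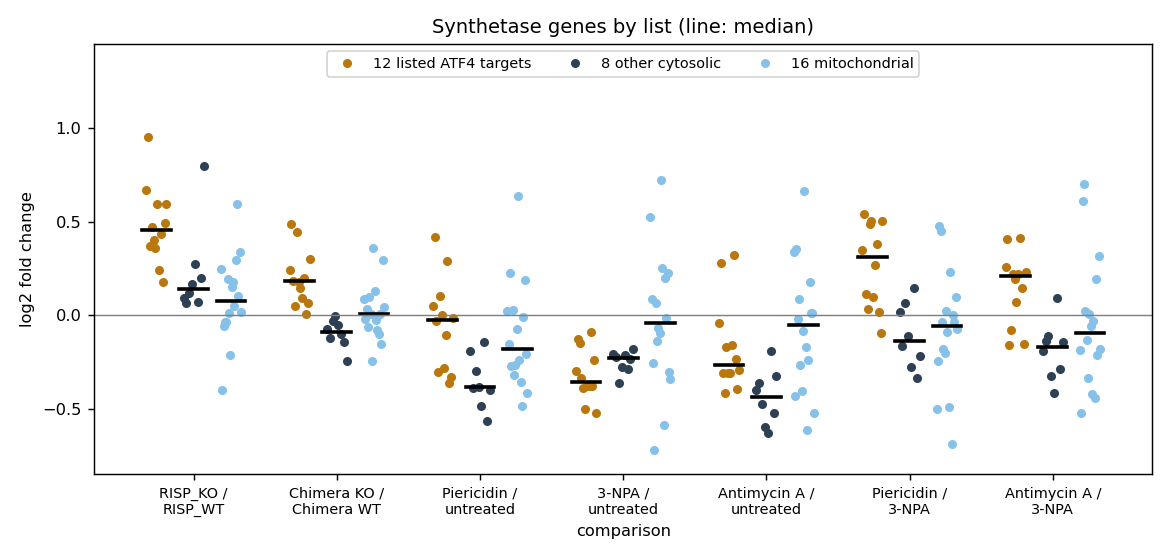
Log2 fold changes of the 12 commonly listed ATF4 target synthetases, the 8 other cytosolic ones and the 16 mitochondrial ones in 7 comparisons, 1 point per gene, with the median as a line. The listed targets have the higher median in RISP_KO (0.45 against 0.14) and the lower median with 3-NPA (-0.36 against -0.23).

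Atf4 gave 145, 183 and 164 CPM with 3-NPA, against 204, 201 and 221 CPM in untreated cells, and fell by 0.39 ± 0.10 on the log2 scale (adjusted p = 0.0302). It was higher with piericidin than with 3-NPA (0.48 ± 0.10, adjusted p = 0.00425) and with antimycin A than with 3-NPA (0.43 ± 0.10, 0.00962). Asns gave 55.6, 43.8 and 60.8 CPM with piericidin. It gave 33.1, 22.2 and 18.9 CPM with 3-NPA. Antimycin A cultures gave 50.4, 39 and 41.6 CPM, against 20.9, 23.9 and 19.6 CPM in untreated cells. It rose with piericidin (1.29 ± 0.22, adjusted p = 5.31e-05) and antimycin A (0.99 ± 0.22, 0.00112), and had 0.16 ± 0.23 with 3-NPA (0.8). Asns was high with the complex I and complex III inhibitors, where most called synthetases were lower, but the stress genes went both ways. Of the 10 tested, 3 rose and 1 fell with piericidin, against 5.62% and 7.93% of all genes. With antimycin A 4 rose and 2 fell, against 6.5% and 8.5%. With 3-NPA none rose and 3 fell, Psat1, Phgdh and Atf4, against 1.35% and 1.87%.

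All 6 growth genes fell with piericidin and with antimycin A, and 2 of 6, Ncl and Odc1, with 3-NPA. The shares of all genes that fell were 7.93% with piericidin, 8.5% with antimycin A and 1.87% with 3-NPA. Myc had log2 fold changes of -0.65 ± 0.10 for piericidin (adjusted p = 1.57e-05), 0.04 ± 0.10 for 3-NPA (0.884) and -0.50 ± 0.10 for antimycin A (0.000394). All 6 proliferation genes fell with piericidin and antimycin A and 3 of 6 with 3-NPA. The proliferation marker Mki67 fell with each drug on the log2 scale: by 1.37 ± 0.15 for piericidin (adjusted p = 4.73e-08), by 0.62 ± 0.15 for 3-NPA (0.0104) and by 2.04 ± 0.16 for antimycin A (1.41e-12). Eif5a fell with all 3 drugs, by 0.41 ± 0.08 for piericidin (adjusted p = 0.000272), 0.28 ± 0.08 for 3-NPA (0.0364) and 0.48 ± 0.08 for antimycin A (1.5e-05).

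Among mitochondrial translation factors, Gfm1, for an elongation factor, fell by 0.58 ± 0.16 for piericidin (adjusted p = 0.0104), by 0.64 ± 0.16 for 3-NPA (0.0162) and by 0.81 ± 0.16 for antimycin A (0.000342). Tufm, for the factor that brings charged tRNA to mitochondrial ribosomes, fell with piericidin (by 0.53 ± 0.17, adjusted p = 0.0261) and antimycin A (by 0.49 ± 0.16, 0.0356). Dtd1, for a proofreading deacylase that frees wrongly charged tRNA, fell with piericidin (by 0.85 ± 0.24, adjusted p = 0.0132). None of the 3 tRNA export genes was called in any of the 5 comparisons with a control, against 28.6% of genes called at least once. Of the 3, 2 had an unadjusted p under 0.05 in RISP_KO (25.5% of all genes) and 1 with antimycin A (27% of all genes).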

How the data were processed

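The deposited tables hold raw read counts per Ensembl gene. Per the submitters' processing notes, the authors used bcl2fastq, TopHat, HTSeq and edgeR with mm10; versions and strand setting are not given in the sources used here. Another 11 columns, in a table whose names match no label, were left out.

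Counts were tested in R 4.3.3 with edgeR 4.0.16 (filterByExpr by group, TMM factors, quasi-likelihood F test), with Benjamini-Hochberg adjusted p under 0.05 over all genes tested. Each knockout had its own fit of 8 libraries, the 12 in vitro libraries shared 1 fit, and the difference of knockout effects used 16. SE is the absolute log2 fold change divided by the root of F. CPM are relative to the library total, and exon lengths are from GENCODE M21. For some members, among them Gars, Nars, Lars2 and Tars2, the deposited gene ends differ from those in M21. Their values per kilobase are therefore approximate. Alternatives were DESeq2 1.42.0, RLE factors, no filter, a replicate block, fits of only the compared groups and leaving out each library. The script was tested on simulated data.

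Genes given by library had the smallest p per compartment and comparison. Members, lists and tests were chosen with earlier results of these data known. The list of ATF4 targets is general knowledge. Sequence of 1 gene's promoter is not reported here.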

Additional observations from a re-analysis of the deposited data

Results flagged for a closer look

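In 9 of 144 gene and group combinations with 4 libraries, 1 library stood far from the other 3 by Dixon's test, which chance does in about 1 of 20. In 3-week-old mice these were Cars at 85.5 CPM and Sars at 317 CPM in RISP_KO replicate 1, Mars at 90.2 CPM in RISP_WT replicate 3, Yars at 68.3 CPM in RISP_WT replicate 2 and Aars2 at 13.6 CPM in RISP_WT replicate 4. In chimeras they were Aars2 at 18.3 CPM and Mars2 at 40.7 CPM in RISP_Chimera_KO replicate 2, Ears2 at 27.3 CPM in RISP_Chimera_WT replicate 3 and Fars2 at 20.1 CPM in RISP_Chimera_WT replicate 1. The calls of Cars, Sars, Mars and Yars in RISP_KO were kept without each of these libraries.

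The knockout effect differed between chimeras and 3-week-old mice for 3 genes by the edgeR test of the difference: Vars (-1.06, adjusted p = 0.000193), Tars2 (-0.61, adjusted p = 0.0244) and Gars (-0.44, adjusted p = 0.045). Age and library kit differ between these settings and cannot be told apart from the difference.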

How the results depend on the processing

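No result changed direction under an alternative while called. RISP_KO counts stayed within 1.5 times (11 cytosolic and 1 mitochondrial; leaving out 1 library, 8 to 11 and 1). Chimera cytosolic calls were 0, but 2 with DESeq2, 1 without the filter, 1 without both RISP_Chimera_KO replicates 4 and 2 (chosen after seeing the data) and 0 to 1 leaving out 1 library; mitochondrial calls stayed at 0. Piericidin cytosolic calls were 5, but 10 with DESeq2, 3 without Gars and Kars, and 3 to 9 leaving out 1 library; mitochondrial calls were 0, but 1 without the filter and 0 to 1 leaving out 1 library. For 3-NPA, 5 cytosolic calls became 8 with DESeq2, 3 in a fit of only the 2 groups and 1 to 3 leaving out 1 library; mitochondrial calls stayed at 0. For antimycin A, 10 cytosolic calls became 6 to 11 leaving out 1 library, and 1 mitochondrial call became 2 with only the 2 groups, 0 without Lars2 (chosen after seeing the data) and 0 to 1 leaving out 1 library. Leaving out 1 library gave 0 for antimycin A against piericidin, 0 to 2 for antimycin A against 3-NPA and 2 to 4 for piericidin against 3-NPA. The 3 differences of knockout effects became 8 with DESeq2 and 1 to 3 leaving out 1 library. The cause of these shifts was not tested. Over all genes, DESeq2 called 2141 in RISP_KO (edgeR 1364), 436 in chimeras (102) and 688 with 3-NPA (377).

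Libraries with the same replicate number did not all deviate together (correlations of deviations from -0.299 to 0.404 in mice, and from 0.000374 to 0.112 in vitro, where all were positive), so the numbers were not taken to pair the samples. In antimycin A against piericidin and piericidin against 3-NPA, each library of the first drug correlated best with its own number in the second, a hint from the data and not from the design. With the replicate number as a block, cytosolic calls were 8 in RISP_KO, 0 in chimeras, 7 with piericidin, 7 with 3-NPA and 12 with antimycin A, and mitochondrial calls 1, 0, 0, 0 and 1. Blocked drug pairs gave 0 (antimycin A against piericidin), 2 (antimycin A against 3-NPA) and 6 (piericidin against 3-NPA), and the difference of knockout effects gave 2.

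In vitro libraries hold 2.71 to 3.45 M counts, which limits the low mitochondrial genes most.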
